A study of Mus musculus with 12 samples.

Results

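Primary mouse hepatocytes that received benzbromarone (BBR) and oleic acid (OA) together were compared with untreated hepatocytes, across all genes, by RNA sequencing. The comparison used 6 of the 12 libraries of the study: the 3 labelled BBROA and the 3 labelled Con, all taken by their titles. It gives the net change under both agents at once and isolates neither. The hepatocytes were perfused from the livers of male C57BL/6J mice and put in culture, and the labels name the source as liver. The control cells received neither agent, and the combined group received BBR, a uricosuric drug used against gout, and OA, a monounsaturated fatty acid that hepatocytes store as triglyceride. Isolated hepatocytes in culture lack the blood flow and most of the other cells of a liver, and all cells here, controls included, had been plated in culture. The other 6 libraries, 3 with OA alone and 3 with BBR alone, are given beside the combined group where they show where its level lay. The series calls the 3 libraries of a group biological replicates, but whether they came from separate mice or separate wells is not given, so p-values measure only the spread between these libraries.

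Hepatocytes burn fatty acids in mitochondria and peroxisomes, store the surplus in lipid droplets and export it in lipoproteins. The peroxisome proliferator-activated receptors (PPARs) are nuclear receptors that fatty acids and many drugs bind, and PPARα in liver controls fatty acid oxidation while PPARγ favours storage. The same cells carry out the urea cycle, convert drugs and bile acids, and secrete most plasma proteins. When amino acids run short or the endoplasmic reticulum or mitochondria are disturbed, the transcription factor ATF4 raises genes of amino acid synthesis and tRNA charging.

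BBR+OA changed a large part of the transcriptome by small amounts. Of 12471 genes tested with edgeR, 5461 passed an adjusted p of 0.05, which is 43.8% of all genes tested; 2688 rose (21.6%) and 2773 fell (22.2%). Among the genes that passed, the median absolute log2 fold change was 0.351. At least a 2-fold change was found for 663 of them (5.32% of all genes tested), 231 upward and 432 downward. A fall of at least 4-fold was found for 64 genes and a rise of that size for 59. The single-agent comparisons, which use the same control libraries, gave 3484 of 12555 genes (27.7%) for BBR alone and 5311 of 12418 (42.8%) for OA alone. Set directly against each other, BBR+OA was higher than OA in 240 of 12278 genes (1.95%) and lower in 323 (2.63%), 4.59% in all. Against BBR it was higher in 2496 of 12416 genes (20.1%) and lower in 2330 (18.8%), 38.9% in all. The CPM values (counts relative to the library total after scaling by the trimmed mean of M values) of the control and BBR+OA libraries did not overlap in 6592 genes (52.9%).

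**Figure D1:**
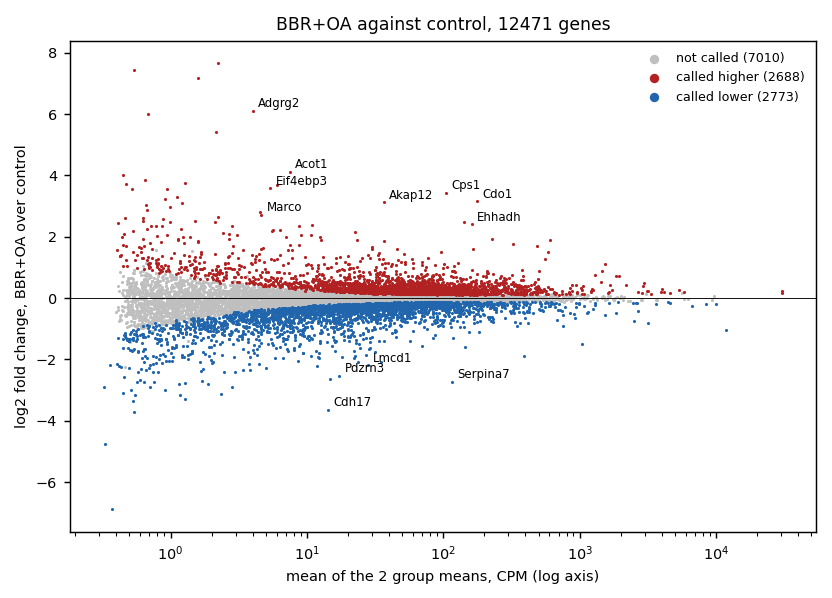
Log2 fold change of BBR+OA over control (y axis) against the mean of the 2 group means in CPM (x axis, log scale), 1 point per gene. Red points are the 2688 genes called higher and blue points the 2773 called lower at an adjusted p under 0.05, and some of the genes named in the text are labelled.

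The 6 libraries held between 16917044 and 23668371 counts, with 14732 to 15144 features detected and 5.497 to 6.587% of counts on mitochondrially encoded genes. Depth was lower on the whole in BBR+OA (16917044 to 19793375) than in control (19507918 to 23668371). In a principal component analysis of all 12 libraries the first component (45.78% of the variance) separated the libraries with OA from those without, the second (16.14%) placed BBR libraries below their counterparts without BBR, and no library left its group. The hepatocyte markers were abundant in every library, with their summed level between 41880 and 43520 CPM in control and between 47710 and 49880 CPM in BBR+OA. The lymphocyte and neutrophil markers were all under 1 CPM.

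The largest rises under BBR+OA came from genes of quite different roles. They are given here for genes whose groups did not overlap and whose mean reached 5 CPM in one of them. Cps1, which encodes the mitochondrial carbamoyl phosphate synthetase that starts the urea cycle, stood at 19.5, 16.5 and 17.7 CPM in the control libraries and at 185, 207 and 186 CPM in the BBR+OA libraries, a rise of 10.8-fold (log2 fold change 3.43 ± 0.06 SE, edgeR adjusted p = 5.44e-16). The groups lay far apart, and OA alone gave a similar level (199.8, 171 and 161 CPM) while BBR alone lay under control (12.2, 8.69 and 8.23 CPM). Cdo1, the dioxygenase that oxidizes cysteine, went from 34.3, 40.0 and 32.1 CPM to 319, 321 and 304 CPM (8.87-fold, 3.15 ± 0.06, edgeR adjusted p = 7.58e-16), with all BBR+OA libraries within a narrow range. It too was high with OA alone (332, 323 and 318 CPM) and low with BBR alone (26.2, 27.5 and 25.1 CPM).

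Acot1, a cytosolic thioesterase that frees fatty acids from coenzyme A and a classical PPARα target, rose 17.4-fold from 0.903, 0.955 and 0.5897 CPM to 13.9, 15.2 and 13.3 CPM (4.12 ± 0.16, edgeR adjusted p = 7.75e-12). Here the single agents stood the other way round: OA alone stayed near control (1.25, 0.758 and 0.664 CPM) and BBR alone was high (11.7, 8.82 and 7.26 CPM). The BBR+OA level of Acot1 was above that with BBR alone (0.59 ± 0.14, edgeR adjusted p = 0.00346). Acot1 lies among near-identical paralogs, between which reads can be split. Ehhadh, the bifunctional enzyme of peroxisomal beta-oxidation, was likewise high in the groups with BBR. It had 54.2, 50.4 and 49.7 CPM in control, 291, 281 and 247 CPM in BBR+OA, 34.5, 32.5 and 34.9 CPM in OA and 520.5, 431 and 389.6 CPM in BBR. Its BBR+OA level was 5.30 times that of control (2.41 ± 0.06, edgeR adjusted p = 2.16e-14), yet lower than under BBR alone (-0.71 ± 0.09 on the log2 scale, edgeR adjusted p = 1.46e-05).

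The remaining large rises were found with OA alone as well. Cyp2b10, the drug-inducible cytochrome P450 that marks activity of the xenobiotic receptor CAR, went from 0.803, 0.764 and 1.01 CPM to 9.62, 11.5 and 12.6 CPM (12.8-fold), and from control to 11.2, 10.9 and 14.9 CPM with OA alone. Eif4ebp3, a repressor of cap-dependent translation, rose 11.98-fold, from 1.15, 0.477 and 0.842 CPM to 11.2, 9.35 and 9.18 CPM. Akap12, a scaffold for protein kinase A, rose 8.67-fold (3.12 ± 0.09, edgeR adjusted p = 2.13e-13) and Serpina3m, a serine protease inhibitor of a multigene family whose reads can be split among copies, 5.61-fold (2.49 ± 0.05, edgeR adjusted p = 5.44e-16). For each of these 4 genes the BBR+OA level did not pass the test against OA alone, with log2 differences of -0.14 ± 0.13, 0.07 ± 0.11, 0.12 ± 0.09 and -0.15 ± 0.05. Adgrg2, an adhesion G protein-coupled receptor, was at 0, 0.286 and 0.0421 CPM in control and 7.44, 7.66 and 8.52 CPM in BBR+OA; because its control mean lies under the floor of 3 counts (0.1264 to 0.1506 CPM in these libraries), the fitted fold change is no measure of size, though the difference passed the test (edgeR adjusted p = 6.39e-10).

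Marco, a scavenger receptor of macrophages, rose from 1.15, 1.19 and 1.26 CPM to 9.72, 6.55 and 7.75 CPM (6.61-fold, 2.72 ± 0.19, edgeR adjusted p = 6.89e-09). Of the 14 tested Kupffer cell markers, 5 rose and 3 fell, where 43.8% of all genes tested passed (21.6% higher and 22.2% lower). Lyz2, macrophage lysozyme, rose 4.13-fold (3.66, 4.34 and 2.65 CPM against 19.1, 11.5 and 13.1 CPM), and Adgre1, the F4/80 antigen, 2.73-fold (2.86, 2.24 and 2.11 CPM against 7.14, 5.29 and 7.27 CPM). Some other markers of the same list went the other way or did not pass: Cd5l fell (-0.90), as did C1qa (-0.38), while Clec4f (-0.76, edgeR adjusted p = 0.0624) and Vsig4 (-0.75, edgeR adjusted p = 0.0963) stood at 0.370 to 1.35 CPM in these libraries and missed the threshold. Timd4 and Cd163, also on the list, had too few counts to be tested. Summed over the list, most of it Cd68 and Slc40a1, the level was 199.6 to 227.1 CPM in control and 183.9 to 200.2 CPM in BBR+OA. Fewer cells of a type and less RNA per cell cannot be told apart in bulk libraries, and the part of macrophage content in these values was not tested.

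Among the falls under the same conditions, Cdh17, the liver-intestine cadherin, changed most. It stood at 25.9, 30.03 and 22.8 CPM in control and 1.72, 2.33 and 2.32 CPM in BBR+OA, 12.4-fold lower (-3.63 ± 0.14, edgeR adjusted p = 5.83e-12). Either agent alone left it at an intermediate level, 5.77, 6.98 and 6.23 CPM with OA and 13.3, 11.5 and 11.2 CPM with BBR, and the combined level was lower than both (against OA -1.58 ± 0.17, edgeR adjusted p = 8.57e-05, and against BBR -2.51 ± 0.15, edgeR adjusted p = 1.55e-08). Cyp26a1, which hydroxylates retinoic acid, had the same order, with 26.7, 23.8 and 25.6 CPM in control, 10.7, 10.3 and 11.2 CPM in OA, 20.9, 19.4 and 12.8 CPM in BBR and 2.94, 6.34 and 2.98 CPM in BBR+OA (6.18-fold lower than control, edgeR adjusted p = 1.91e-09). Lmcd1, a LIM-domain protein, fell 4.57-fold from 47.9, 48.2 and 41.03 CPM to 9.01, 9.94 and 11.1 CPM, and Tnnt2, troponin T of the heart, fell 5.07-fold from 5.42, 5.97 and 5.48 CPM to 0.658, 0.898 and 1.85 CPM. Both were lower in BBR+OA than in OA (log2 -1.07 ± 0.14, edgeR adjusted p = 0.000404, and -1.29 ± 0.32, edgeR adjusted p = 0.032).

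Serpina7, thyroxine-binding globulin, fell 6.63-fold, from 189.7, 195 and 215 CPM to 22.7, 30.3 and 38.3 CPM (-2.73 ± 0.11, edgeR adjusted p = 7.75e-12). No BBR+OA library came near the control libraries, and OA alone was at 29.2, 38.8 and 43.1 CPM. Pdzrn3, a ubiquitin ligase with PDZ domains, fell 5.82-fold and Scara5, a ferritin receptor, 4.84-fold. Car14, a membrane carbonic anhydrase, fell 5.11-fold to between 0.846 and 1.91 CPM. The transporter genes Abcc12 (4.66-fold) and Abca8a (4.46-fold) completed the 10 largest falls.

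**Figure D2:**
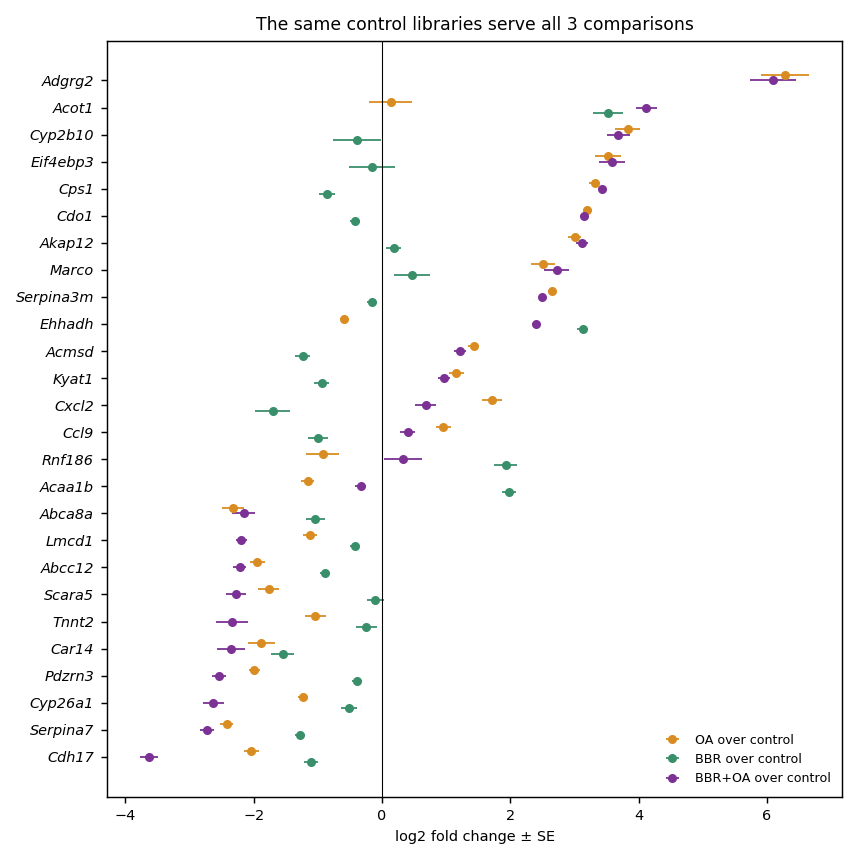
Log2 fold change over control with its standard error for the 10 largest rises, the 10 largest falls and 6 genes moved in opposite directions by the single agents, under OA (orange), BBR (green) and BBR+OA (purple). The purple points lie near the orange ones for Cps1, Cdo1 and Cyp2b10, near the green one for Acot1, and beyond both for Cdh17 and Cyp26a1. No green point is drawn for Adgrg2, which had too few counts to be tested in that comparison, and its other points depend on control counts near 0.

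Fatty acid oxidation genes mostly rose. The counts of members given here and below stand beside 21.6% higher and 22.2% lower over all genes tested. Of 20 tested genes of the carnitine shuttle and mitochondrial beta-oxidation, 14 rose and 1 fell (median log2 fold change 0.26, against -0.01 over all genes tested), where BBR alone, with the same controls, had 11 and 2 and OA alone 5 and 7. Cpt1a, the rate-limiting carnitine palmitoyltransferase, went from 62.6, 69.9 and 58.3 CPM to 137, 142 and 133 CPM (2.16-fold, 1.11 ± 0.06, edgeR adjusted p = 1.59e-10), above OA (86.03, 79.7 and 72.9 CPM) and BBR (97.5, 85.7 and 91.5 CPM). Acadl, the long-chain acyl-CoA dehydrogenase, was likewise highest in BBR+OA, with 80.4, 78.0 and 74.98 CPM in control, 106, 106 and 107 CPM in BBR, 118, 118 and 116 CPM in OA and 158, 165 and 157 CPM in BBR+OA. Etfdh, which passes the electrons of these dehydrogenases to ubiquinone, rose 1.64-fold, and against OA alone by 0.40 ± 0.05 on the log2 scale (edgeR adjusted p = 0.000208). Cpt1b, the muscle form of the palmitoyltransferase, rose as well (1.04 ± 0.20, edgeR adjusted p = 0.000437), and Acadvl, the very long-chain dehydrogenase, went from 107, 104 and 108 CPM to 153, 173 and 166 CPM. Acaa2, the last thiolase of the mitochondrial spiral, was the member that fell (-0.21), and 2 fell without BBR+OA replicate 3.

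In peroxisomes 9 of 18 tested beta-oxidation genes rose and 4 fell. Besides Ehhadh, the thioesterase Acot4 rose 2.502-fold (9.69, 9.74 and 8.63 CPM to 23.4, 21.7 and 25.3 CPM). Crot, which makes medium-chain acylcarnitines, fell 1.59-fold. Acaa1b, a peroxisomal thiolase, was a member where the agents opposed each other: BBR alone raised it to 125, 92.9 and 95.3 CPM from 31.02, 24.1 and 25.02 CPM, OA alone lowered it to 12.7, 12.2 and 10.8 CPM, and BBR+OA left it at 21.3, 20.9 and 21.7 CPM, slightly under control (-0.33 ± 0.09, edgeR adjusted p = 0.00529).

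Of 13 genes of ketogenesis and fasting, 5 rose and 3 fell, where 21.6% of all genes tested rose and 22.2% fell. Pdk4, the kinase that switches off pyruvate dehydrogenase, rose 3.74-fold from 9.59, 9.26 and 10.5 CPM to 39.1, 37.2 and 33.6 CPM (1.90 ± 0.08, edgeR adjusted p = 1.55e-11). BBR alone had brought it to 116, 115 and 105 CPM, so that the combined level was lower than under BBR (-1.61 ± 0.06, edgeR adjusted p = 2.45e-10) and higher than under OA (1.39 ± 0.10, edgeR adjusted p = 1.31e-06). Creb3l3, a membrane-bound transcription factor of fasting, reached 145, 137 and 146 CPM from 48.7, 50.1 and 52.3 CPM (2.83-fold), above both single agents. Bdh1, which interconverts the ketone bodies, fell 3.02-fold.

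Lipid droplet genes were mixed, with 8 of 18 higher and 3 lower. Cidec, which fuses lipid droplets, went from 6.32, 4.58 and 5.22 CPM to 19.2, 21.7 and 19.01 CPM (3.72-fold, 1.89 ± 0.11, edgeR adjusted p = 6.22e-10), while either agent alone gave a middle level (11.2, 10.6 and 10.5 CPM for OA and 13.9, 9.53 and 10.01 CPM for BBR). Its combined level was above OA (0.89 ± 0.09, edgeR adjusted p = 3.27e-05) and above BBR (0.82 ± 0.12, edgeR adjusted p = 8.74e-05). Plin2, the main droplet coat protein of hepatocytes, rose 1.67-fold (998, 1015 and 904 CPM to 1669, 1620 and 1593 CPM), to a level that did not pass the test against BBR alone (-0.02 ± 0.05, edgeR adjusted p = 0.784). Hilpda, an inhibitor of the triglyceride lipase ATGL, rose 2.43-fold to 81.5, 82.8 and 84.4 CPM, between OA (62.6, 64.7 and 65.3 CPM) and BBR (108, 119.8 and 103 CPM). G0s2, another inhibitor of that lipase, fell 2.34-fold (13.8, 12.4 and 13.7 CPM to 5.67, 4.92 and 6.55 CPM), and the droplet protein Plin4 fell too (-1.11). Cidea did not pass the test (0.12, edgeR adjusted p = 0.277).

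**Figure D3:**
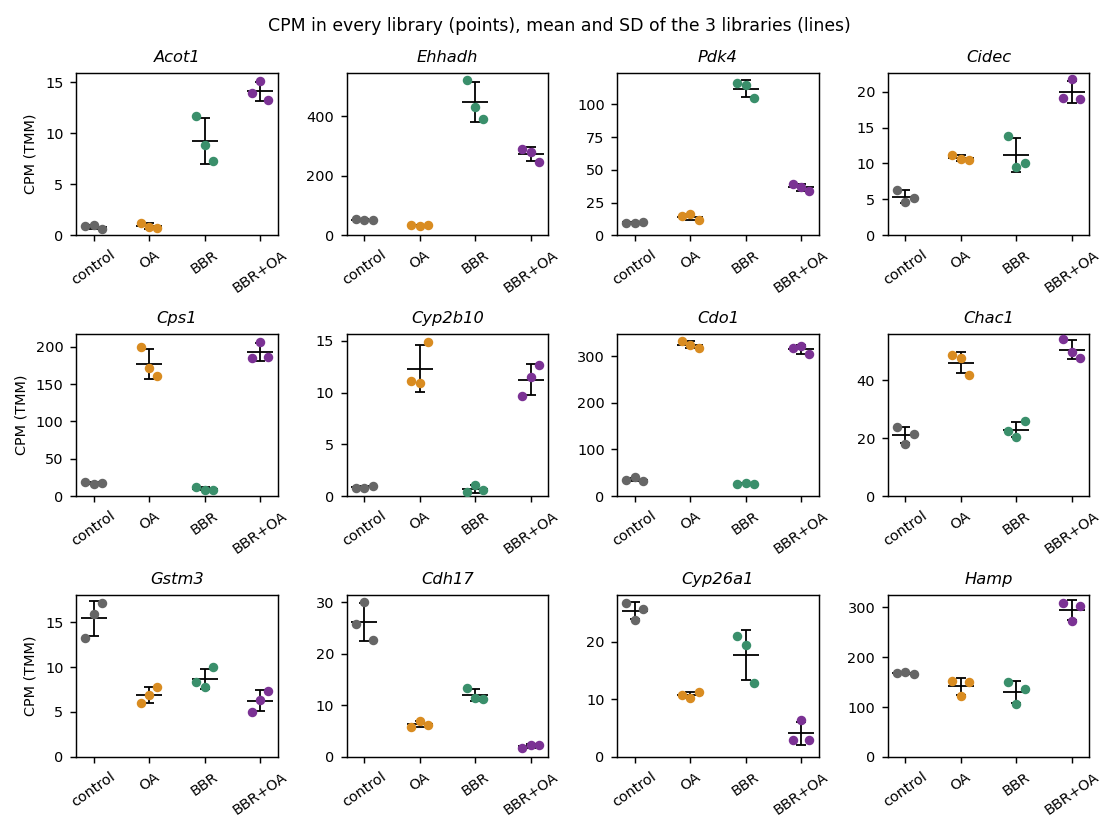
CPM of 12 genes in every library of the 4 groups (points), with the mean and SD of the 3 libraries of a group (black lines), each panel on its own linear axis from 0. Acot1, Ehhadh and Pdk4 are high in the groups with BBR, Cps1, Cyp2b10, Cdo1 and Chac1 in the groups with OA, and Cidec and Hamp are highest, and Cdh17 and Cyp26a1 lowest, in BBR+OA.

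Of 16 genes of fatty acid uptake and activation 4 were higher and 5 lower, shares near those of all genes tested (21.6% and 22.2%). Fabp4, a fatty acid binding protein best known from adipocytes, rose 3.59-fold (16.2, 15.4 and 16.3 CPM to 57.3, 57.8 and 57.1 CPM), while Slc27a1, a fatty acid transporter, fell 2.22-fold and Fabp5 1.69-fold. Cd36, the scavenger receptor that takes up fatty acids, was at 4.57, 4.11 and 3.71 CPM in control and 6.58, 4.28 and 4.41 CPM in BBR+OA and did not pass the test (0.31 ± 0.18, edgeR adjusted p = 0.163). Of 18 genes of fatty acid synthesis and desaturation, 8 fell and 3 rose (median -0.24). Acaca, acetyl-CoA carboxylase, the committed step, fell 3.004-fold, and its 3 control libraries (211, 178 and 262 CPM) varied far more than its BBR+OA libraries (71.1, 72.7 and 73.7 CPM). Scd1, stearoyl-CoA desaturase, which makes oleate, fell 1.67-fold although BBR alone raised it (0.48). Fasn, fatty acid synthase, rose (0.49 ± 0.05, edgeR adjusted p = 2.75e-07).

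Triglyceride synthesis genes had 5 members higher and 5 lower of 14, with the acyltransferases Gpam (1.49-fold) and Gpat3 (1.47-fold) and the phosphatidate phosphatase Lpin2 (1.45-fold) rising most. Among 20 apolipoprotein and lipoprotein genes, 8 rose and 5 fell. Apoa1, the main protein of high-density lipoprotein, went from 1044, 1016 and 1017 CPM to 2026, 1834 and 1863 CPM. Apoc2, the cofactor of lipoprotein lipase, rose 2.21-fold and the receptor Vldlr 2.199-fold. Of 20 cholesterol synthesis genes 9 rose and 2 fell (median 0.10), beside 16 and 2 with OA alone. In bile acid synthesis and transport, 7 of 18 fell, including Abcb4, the phospholipid exporter of the canalicular membrane (2.15-fold, 249.9, 238 and 265 CPM to 116, 114 and 121 CPM), and 1 rose, Abcb11, the bile salt export pump (1.96-fold). Nr0b2, the repressor SHP that bile acids induce through their receptor, fell too (-1.91 ± 0.29, edgeR adjusted p = 5.34e-05).

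Of the receptors themselves, Pparg and Ppard fell and Ppara rose. Pparg was at 12.8, 13.6 and 12.1 CPM in control and 6.28, 7.35 and 6.14 CPM in BBR+OA, 1.94-fold lower (-0.96 ± 0.11, edgeR adjusted p = 1.35e-06), with no overlap between the groups. Pparg also fell with OA alone (-0.62 ± 0.10, edgeR adjusted p = 0.000129). It did not pass the test with BBR alone (-0.008 ± 0.09, edgeR adjusted p = 0.96). The difference between BBR+OA and OA alone did not pass either (-0.33 ± 0.12, edgeR adjusted p = 0.136). Ppara rose 1.41-fold (4.77, 4.87 and 5.64 CPM to 8.25, 6.13 and 7.33 CPM, edgeR adjusted p = 0.00752), a call that was lost without BBR+OA replicate 1 (log2 0.39, edgeR adjusted p = 0.051). Ppara rose with OA alone (0.62 ± 0.12, edgeR adjusted p = 0.000871) and did not pass with BBR alone (0.08 ± 0.15, edgeR adjusted p = 0.752). Ppard fell 1.21-fold. Ppard did not pass with BBR alone (-0.15, edgeR adjusted p = 0.151) or OA alone (-0.16, edgeR adjusted p = 0.103). In a list of PPAR targets, 30 of 60 tested genes rose and 16 fell (median 0.25), beside 34 and 7 for BBR alone and 20 and 18 for OA alone. The study set PPAR targets of its own against these same libraries. The members of that set are not printed in the text of the study read here, so how far the list used here matches it is not known. The list was chosen with earlier results of these data known and is no independent measure of direction. Angptl4, the secreted lipoprotein lipase inhibitor, rose 1.86-fold (90.3, 84.5 and 76.9 CPM to 163, 154 and 151 CPM) and Cyp4a10, a fatty acid omega-hydroxylase with close paralogs, 1.55-fold. Of the 11 tested omega-hydroxylases of its family 3 rose and 1 fell (2 without control replicate 2 or BBR+OA replicate 1). A direct repeat of the PPAR and RXR pair, AGGTCA repeated after any 1 base, was searched on both strands in promoter windows. The windows ran from 250 bases before to 50 after the start site. The exact repeat was in 5 of 9471 genes tested with a window (0.0528%). None of the 15 peroxisomal, 6 ketogenesis and 17 lipid droplet genes with a window held it. Since an exact match is so rare, its absence from so few windows cannot show whether these genes have such an element.

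In glucose metabolism 8 of 15 genes of gluconeogenesis rose and 4 fell. Fbp2, the muscle form of fructose bisphosphatase, went from 1.91, 2.24 and 2.48 CPM to 8.25, 12.4 and 10.8 CPM (4.67-fold, 2.23 ± 0.17, edgeR adjusted p = 1.87e-08), with OA alone overlapping control (1.47, 2.17 and 3.01 CPM). Pck1, the cytosolic carboxykinase that controls the pathway, rose as well (1.45 ± 0.25, edgeR adjusted p = 0.000189), and Pcx, pyruvate carboxylase, fell 1.88-fold. Glycolysis had 9 of 21 higher, among them the glucose transporter Slc2a1 (1.51-fold), and 6 lower. Of 12 glycogen genes 5 fell, including the branching enzyme Gbe1, and 1 rose (0 without control replicate 1 and 3 without control replicate 3).

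Urea cycle genes were mixed beside Cps1. Of 15 genes of the urea cycle and ammonia handling 8 rose and 2 fell (median 0.17), Cps1 included, while BBR alone had 3 higher and 7 lower. Arg1, arginase, rose 1.68-fold, and Glul, glutamine synthetase, fell 1.94-fold (198, 174 and 193 CPM to 103, 94.4 and 93.95 CPM). In amino acid catabolism 8 of 22 rose and 6 fell, with 5 higher when control replicate 2 was left out. Over all genes tested 21.6% rose and 22.2% fell. Tdo2, which opens the tryptophan ring, fell 3.89-fold from 33.02, 35.8 and 36.8 CPM to 9.97, 7.399 and 9.89 CPM, and Aass, the first enzyme of lysine breakdown, rose 2.52-fold. Methionine and cysteine genes gave 4 higher and 6 lower of 14. Ahcy, which hydrolyses S-adenosylhomocysteine, rose 2.44-fold (315, 326 and 324 CPM to 756, 812 and 784 CPM) and Cth, which makes cysteine from cystathionine, 2.28-fold.

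Genes of the ATF4 pathway rose in the combined group. Of 18 tested ATF4 and CHOP stress regulators 13 rose and none fell (median 0.44), of 20 cytosolic aminoacyl-tRNA synthetases 16 rose and none fell (median 0.34), and of 17 genes of serine, one-carbon and asparagine synthesis 13 rose and 4 fell (median 0.56). With OA alone the same lists had 15, 17 and 12 members higher, and with BBR alone 7, 1 and 2. Without BBR+OA replicate 3, 1 of the regulators fell. At an unadjusted p, 1 of the ATF4 and CHOP regulators and 0 of the synthetases were lower, and with DESeq2 0 of either. Atf4 itself rose (0.58 ± 0.04, edgeR adjusted p = 7.36e-09), as did Ddit3, which encodes CHOP (0.95 ± 0.10, edgeR adjusted p = 6.41e-07). Chac1, which degrades glutathione, went from 23.8, 18.1 and 21.3 CPM to 54.2, 49.8 and 47.9 CPM (2.40-fold, edgeR adjusted p = 1.90e-09). Atf3, a stress-induced repressor, went from 31.5, 32.3 and 31.5 CPM to 70.9, 76.2 and 70.8 CPM, with BBR alone (45.4, 44.4 and 44.02 CPM) and OA alone (52.4, 60.6 and 49.6 CPM) both between.

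Slc7a1, the carrier of arginine and lysine, rose 2.76-fold and Psat1, the aminotransferase of serine synthesis, 2.23-fold (82.9, 73.4 and 80.5 CPM to 179, 179 and 171 CPM). Asns, asparagine synthetase, rose by 0.97 ± 0.04 on the log2 scale. Pycr1, the last enzyme of proline synthesis, rose (0.70 ± 0.17, edgeR adjusted p = 0.00305). Gars, which charges tRNA with glycine, rose from 243, 235 and 236 CPM to 392, 409 and 409.5 CPM, and Vars and Rars, for valine and arginine, 1.55-fold and 1.45-fold. Shmt1, the cytosolic serine hydroxymethyltransferase, fell 2.41-fold. Among mitochondrial stress genes 7 of 12 rose and none fell (1 without BBR+OA replicate 3), including the folate enzyme Mthfd2 (2.18-fold) and Trp53inp1 (1.89-fold), while Fgf21 and Gdf15, secreted proteins often used as readouts of such stress, did not pass the test (-0.11 ± 0.39 and -0.13 ± 0.05, edgeR adjusted p = 0.843 and 0.0632).

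The composite element bound by ATF4 with a C/EBP partner is commonly written TGATGNAA. It was found on either strand of the promoter window of 2.8% of the genes tested (265 of 9471 with an entry), of 7 of the 17 tested ATF4 and CHOP regulators with an entry, of 5 of 12 synthetases and of 3 of 15 serine and one-carbon genes. Among those that rose it was in 4 of 12, 5 of 10 and 2 of 11, so that 3 of the regulators with a match, Fgf21, Jdp2 (0.52 ± 0.23, edgeR adjusted p = 0.0758) and Nupr1 (0.20 ± 0.13, edgeR adjusted p = 0.227), were not called. Slc7a11, the cystine carrier, has a match in the serine list and fell (-0.16 ± 0.06, edgeR adjusted p = 0.0275). A match only says that these letters are present. The stretches below, from RefSeq on build GRCm38.p6 and read 5′ to 3′ on the strand of the gene, end before the start site and outside annotated exons, belong to 4 of the genes that rose, and show the match (or its reverse complement) in capitals.
Chac1 (chr2:119351003-119351102, plus strand): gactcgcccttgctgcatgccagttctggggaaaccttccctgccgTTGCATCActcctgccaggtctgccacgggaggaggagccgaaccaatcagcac
Atf3 (chr1:191183390-191183489, minus strand): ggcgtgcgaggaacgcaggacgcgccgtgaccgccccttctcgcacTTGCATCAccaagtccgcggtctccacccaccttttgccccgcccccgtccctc
Gars (chr6:55037901-55038000, plus strand): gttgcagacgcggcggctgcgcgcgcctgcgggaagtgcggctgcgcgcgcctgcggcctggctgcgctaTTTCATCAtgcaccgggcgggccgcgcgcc
Pycr1 (chr11:120643798-120643897, minus strand): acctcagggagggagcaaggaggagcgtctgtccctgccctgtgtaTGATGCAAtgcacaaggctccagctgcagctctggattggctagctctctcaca

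NRF2 targets, the genes of glutathione synthesis and electrophile defence, fell. Of 24 tested 21 were lower and 1 higher (median -0.45), beside 19 lower with OA alone and 11 with BBR alone. Gstm3, a glutathione S-transferase with close paralogs, fell 2.497-fold (13.2, 15.8 and 17.1 CPM to 5.01, 6.34 and 7.39 CPM, edgeR adjusted p = 3.70e-07) and Gsta3 2.01-fold (88.5, 101 and 113 CPM to 43.4, 54.3 and 53.4 CPM). Abcc4, an exporter of conjugates and nucleotides, fell 2.13-fold, and Gclc, the catalytic subunit of glutamate-cysteine ligase, fell as well (-0.91 ± 0.06, edgeR adjusted p = 4.80e-09). Nqo1, a quinone reductase, was at 12.8, 10.9 and 11.1 CPM in control and 7.64, 7.03 and 7.39 CPM in BBR+OA. The member that rose was Hmox1, heme oxygenase, with 175, 237 and 213 CPM in control and 216, 275 and 272 CPM in BBR+OA (0.29 ± 0.09, edgeR adjusted p = 0.018). Its groups overlapped, and with the call gone no member was higher without control replicate 1, without BBR+OA replicate 2 or 3, with DESeq2 or in the fit on all 12 libraries.

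The antioxidant response element, spelled TGACNNNGC, is short and occurred in 17.0% of the genes tested, in 9 of the 22 tested NRF2 targets with an entry, and in 7 of the 20 of them that fell. Stretches from 3 of them, shown as above, follow, among them one of Ugdh, which makes UDP-glucuronic acid for conjugation (-0.64 ± 0.05, edgeR adjusted p = 3.19e-08). The stretch of Abcc4 belongs to a start site that lies downstream of another. The window of that upstream site (chr14:118706170-118706469) also holds a match, which is not shown.
Abcc4 (chr14:118676932-118677031, minus strand): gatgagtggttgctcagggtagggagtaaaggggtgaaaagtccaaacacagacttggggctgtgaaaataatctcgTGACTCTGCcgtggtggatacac
Gsta3 (chr1:21240418-21240517, plus strand): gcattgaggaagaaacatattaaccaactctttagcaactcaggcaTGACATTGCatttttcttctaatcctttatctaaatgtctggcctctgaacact
Ugdh (chr5:65435950-65436049, minus strand): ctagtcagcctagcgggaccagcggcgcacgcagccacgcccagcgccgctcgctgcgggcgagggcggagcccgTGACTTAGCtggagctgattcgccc
The sterol element TCACNCCAC was in 1.46% of the genes tested and in 1 of the 15 tested cholesterol synthesis genes with an entry, Hmgcs1, which rose (0.24 ± 0.05, edgeR adjusted p = 0.00125), the synthase that makes the precursor of mevalonate.
Hmgcs1 (chr13:119690168-119690267, plus strand): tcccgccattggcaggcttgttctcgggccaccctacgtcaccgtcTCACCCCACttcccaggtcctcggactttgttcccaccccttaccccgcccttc

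Metallothioneins rose: Mt2 went from 126, 156 and 158 CPM to 500, 499 and 506 CPM (3.42-fold) and Mt1 from 202, 249 and 238 CPM to 702, 771 and 741 CPM (3.21-fold), and OA alone gave like levels (562, 565 and 582 CPM for Mt2). Of the 15 genes of metal handling 6 rose and 4 fell, beside 21.6% and 22.2% of all genes tested. Hamp, which encodes the iron hormone hepcidin, was higher in BBR+OA than in any other group. It stood at 168, 171 and 167 CPM in control, 153, 122 and 150.4 CPM in OA, 150, 105 and 136 CPM in BBR and 308, 272 and 303 CPM in BBR+OA (1.74-fold over control, edgeR adjusted p = 1.24e-09), and passed the test against OA (1.05 ± 0.08, edgeR adjusted p = 2.04e-06) and against BBR (1.17 ± 0.09, edgeR adjusted p = 2.44e-07). Heat shock genes gave 7 of 14 higher and 3 lower (1 lower without control replicate 2 or BBR+OA replicate 2), with Hspb8, a small heat shock protein, 1.47-fold higher. Endoplasmic reticulum chaperones gave 5 higher and 5 lower of 18, 2 and 8 with upper quartile scaling, and 3 higher without control replicate 2 or 3 or BBR+OA replicate 1 or 2. Herpud1, of the degradation machinery of that organelle, rose 2.09-fold, and Pdia4, a disulfide isomerase, fell 1.49-fold.

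Conjugating enzymes mostly fell, and cytochrome P450 genes were mixed. Of 30 conjugating enzymes 19 were lower and 3 higher (median -0.41), and of 25 cytochrome P450 genes of families 1 and 2, 9 were lower and 4 higher. Over all genes tested 22.2% were lower and 21.6% higher. In all, 52% of these P450 genes were called, beside 43.8% of all genes tested. By at least 2-fold, 4 of these P450 genes fell and 2 rose. Their log2 fold changes ran from -1.52 to 3.68. The sulfotransferases Sult1a1 (4.12, 3.29 and 3.24 CPM to 21.3, 16.9 and 16.6 CPM, 5.16-fold) and Sult1d1 (2.16-fold) rose. Cyp2c70, which in mice makes muricholic acids, rose 3.02-fold to 67.6, 71.3 and 68.4 CPM, below the level with OA alone (118, 110 and 105 CPM, log2 difference -0.69 ± 0.05, edgeR adjusted p = 5.29e-06). Cyp1a2 fell 1.17-fold (55.9, 53.9 and 49.9 CPM to 45.04, 44.8 and 47.3 CPM). Cyp2c29, Cyp2c37 and Cyp2d9 did not pass the test, with log2 fold changes of -0.02 ± 0.09, -0.12 ± 0.10 and 0.02 ± 0.08. Cyp3a11, the main drug-oxidizing P450 of its family in mice, rose 1.14-fold (edgeR adjusted p = 0.0154), a call lost without control replicate 2 (adjusted p = 0.0995) or BBR+OA replicate 1 (adjusted p = 0.099), and in the family 3 list 2 of 4 rose and none fell (1 rose in those same fits). These P450 families have near-identical members among which reads can be split.

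Of 20 xenobiotic and lipid nuclear receptors 12 fell and 3 rose (median -0.29). The falls included Nr1i2, the pregnane X receptor (-0.75 ± 0.09, edgeR adjusted p = 3.86e-06), and Nr1h4, the bile acid receptor FXR (-0.52 ± 0.08, edgeR adjusted p = 6.65e-05). Of 16 hepatocyte transcription factors 11 fell and 2 rose, among them Cebpa, 1.47-fold lower (81.05, 81.4 and 87.95 CPM to 54.7, 56.5 and 59.6 CPM), and Prox1, 1.31-fold lower. Of the hepatocyte secreted markers 7 of 17 rose and 4 fell, and Alb, albumin, was at 27140, 28670 and 28550 CPM in control and 32050, 34450 and 33040 CPM in BBR+OA. Genes of urate production, breakdown and transport, the pathway on which BBR is used, gave 7 lower and 3 higher of 14. Xdh, xanthine oxidoreductase, which makes urate, fell 1.64-fold (114, 120 and 117 CPM to 71.5, 67.9 and 75.3 CPM), Urad, of urate breakdown, fell 1.85-fold, and the purine nucleoside phosphorylase Pnp rose 1.33-fold. Slc22a12, the renal urate transporter that BBR inhibits, had no counts in these 6 libraries. Drug transporters gave 9 lower and 4 higher of 19, where 22.2% of all genes tested were lower and 21.6% higher. Monocarboxylate transporters gave 2 lower and 1 higher of 9, with 0 lower without BBR+OA replicate 2 and 1 lower without control replicate 3 or BBR+OA replicate 1 or 3.

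**Figure D4:**
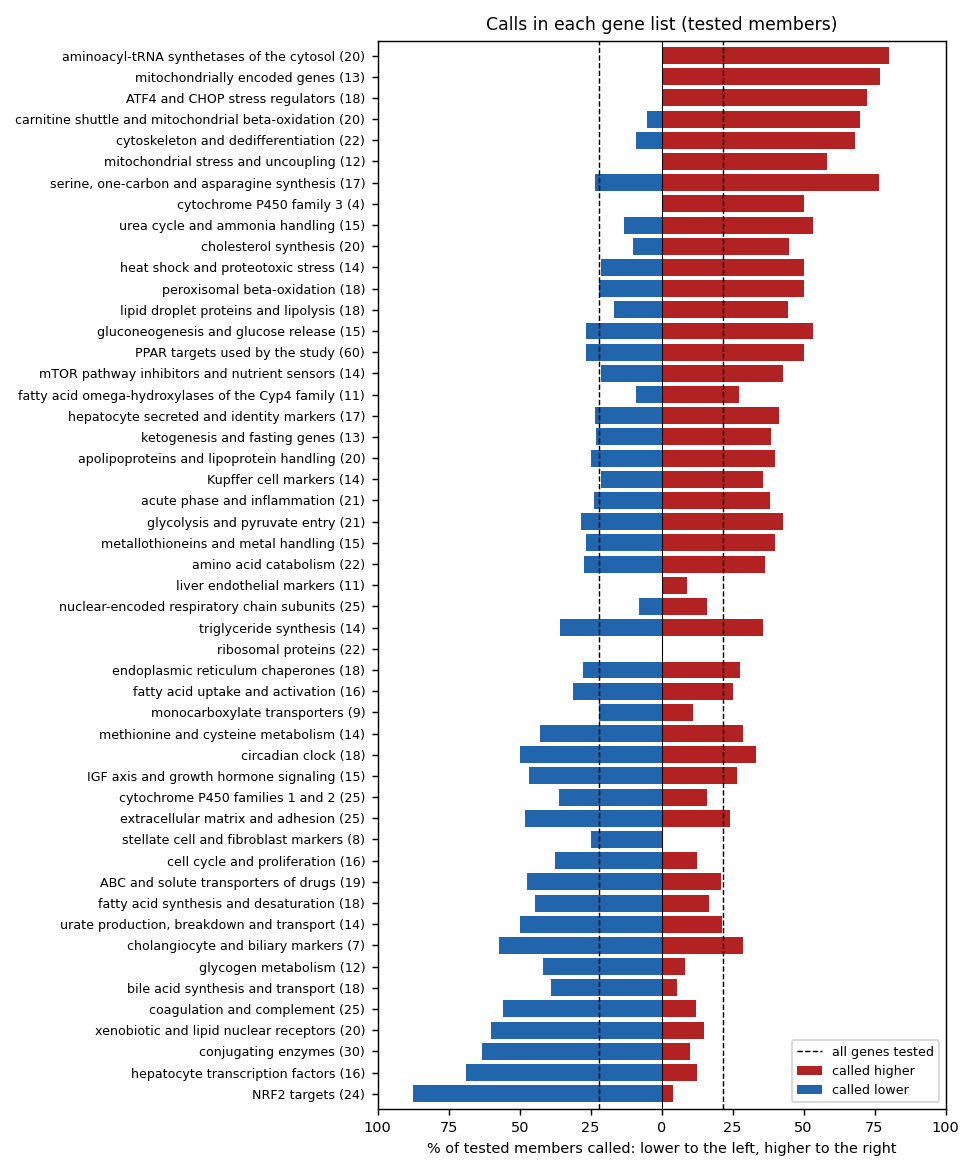
Percentage of the tested members of each gene list that were called higher (red, to the right) or lower (blue, to the left) in BBR+OA against control, with the number of tested members in brackets. Dashed lines mark the percentages over all genes tested, 21.6 higher and 22.2 lower, and the lists at the ends are the aminoacyl-tRNA synthetases (80.0% called in all) and the NRF2 targets (91.7%).

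Acute phase genes were mixed, and coagulation and complement genes fell more often than they rose. Of 21 acute phase and inflammation genes 8 rose and 5 fell, where 21.6% of all genes tested rose and 22.2% fell. Ccl2, the monocyte chemokine, rose 3.83-fold (102, 93.99 and 86.4 CPM to 409.6, 312 and 361 CPM), Lcn2, lipocalin 2, 3.74-fold and Crp, C-reactive protein, 2.502-fold. BBR alone lowered Ccl2 (-0.70) and Crp (-0.62). Of 25 coagulation and complement genes 14 fell and 3 rose (median -0.29), including F7, coagulation factor VII (2.04-fold), C6 of the terminal complement complex (1.97-fold) and Cpn2, a carboxypeptidase N subunit (2.21-fold). In the IGF axis 4 of 15 rose and 7 fell. Igfbp1, an insulin-repressed binding protein, rose 2.82-fold (282, 309 and 319.5 CPM to 819.7, 876 and 879 CPM) and the insulin receptor substrate Irs2 2.498-fold. Igfbp4 fell 1.699-fold, to a level (73.1, 73.7 and 75.1 CPM) between that of BBR (49.5, 38.0 and 45.5 CPM) and those of OA (137, 135 and 139.7 CPM) and control (123, 128 and 125 CPM).

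Of 18 circadian clock genes 6 rose and 9 fell. Per1 rose 2.67-fold (15.2, 15.8 and 14.9 CPM to 40.9, 41.2 and 40.3 CPM), and Arntl, the activator of the loop also called BMAL1, rose (0.86 ± 0.07, edgeR adjusted p = 3.58e-08). Per3 (3.87-fold) and the repressors Nr1d1 (2.58-fold) and Nr1d2 (2.09-fold) fell, as did Dbp, an output gene of the clock (2.16, 3.06 and 3.58 CPM to 0.506, 0.423 and 0.417 CPM). With BBR alone Per3, Nr1d1 and Nr1d2 had log2 fold changes of 0.14, 0.09 and 0.08, and with OA alone -2.09, -1.25 and -1.11.

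Of 25 matrix and adhesion genes 12 fell and 6 rose: Lamb3, a laminin chain, fell 4.28-fold (43.2, 37.5 and 34.7 CPM to 9.31, 8.56 and 9.06 CPM), Col4a5, a basement membrane collagen, 3.403-fold, and Fn1, fibronectin, 1.74-fold. By at least 2-fold, 2 members of this list fell and 1 rose, and the log2 fold changes ran from -2.10 to 2.11. Cytoskeleton and dedifferentiation genes mostly rose, 15 of 22 against 2 that fell (median 0.25). S100a10, an annexin partner, rose 1.66-fold, but Vim, vimentin, fell 1.89-fold (1002, 993 and 954 CPM to 519, 502 and 544 CPM) and Afp, fetal alpha-fetoprotein, 1.65-fold. Of 16 cell cycle genes 6 fell, including Ccnd1, cyclin D1 (2.14-fold), and 2 rose (1 without control replicate 1 or BBR+OA replicate 3). Over all genes tested 22.2% fell and 21.6% rose. Among mTOR pathway inhibitors and nutrient sensors 6 of 14 rose, Eif4ebp3 by far the most, and 3 fell, including Deptor (1.61-fold) and Sesn3 (1.47-fold).

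Some groups hardly moved. The 22 ribosomal protein genes had log2 fold changes of -0.10 to 0.13, and 0 passed the edgeR test (1 at an unadjusted p under 0.05, all of them upward, 1 with DESeq2, 1 without control replicate 3 and 2 without BBR+OA replicate 1). Of 25 nuclear-encoded respiratory chain subunits 4 rose and 2 fell, with no rise called under upper quartile scaling, 1 rise when control replicate 1 or 2 or BBR+OA replicate 3 was left out, 2 rises when BBR+OA replicate 2 was, and 1 fall when control replicate 1 or BBR+OA replicate 2 was, and the subunit that changed most was Sdha (-0.17 ± 0.04). Of the 13 mitochondrially encoded genes tested 10 rose and none fell, by small amounts such as 0.31 ± 0.06 for mt-Co3, a subunit of cytochrome c oxidase, and 6 rose with upper quartile scaling, 3 without control replicate 2 and 5 without BBR+OA replicate 2. The share of all counts on mitochondrially encoded genes was 5.497 to 6.074% in control and 6.093 to 6.587% in BBR+OA.

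**Figure D5:**
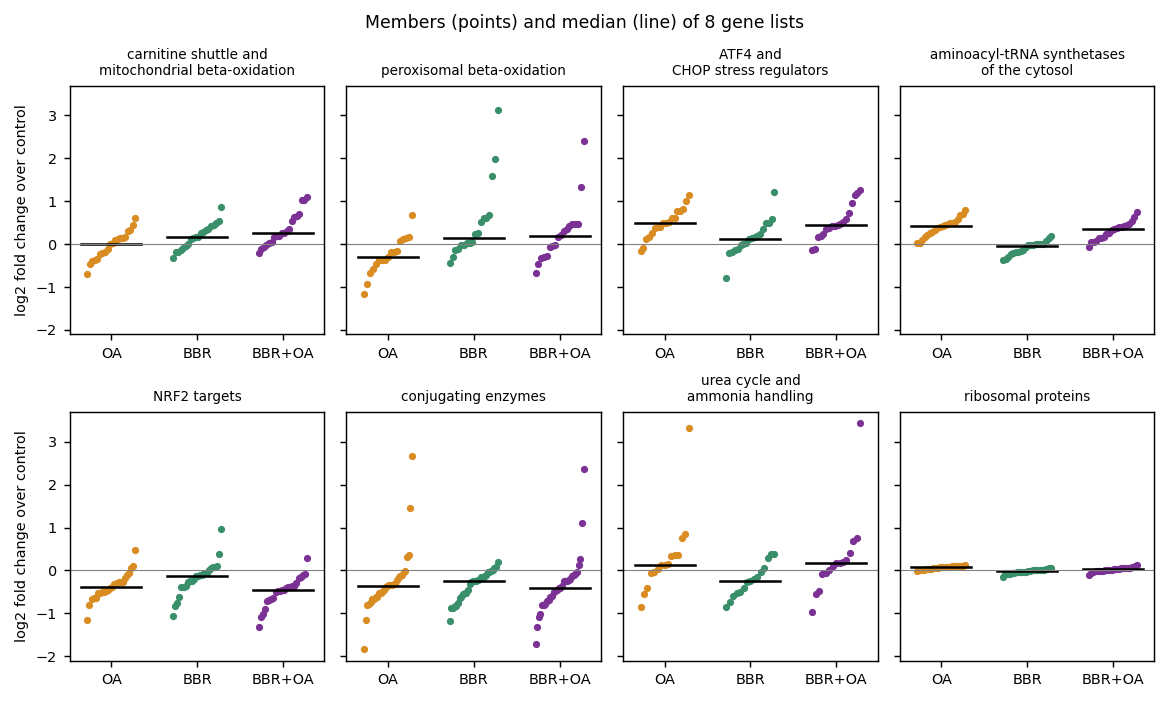
Log2 fold change over control of each tested member (points) and the median (black line) of 8 gene lists, under OA, BBR and BBR+OA, which share the control libraries. The BBR+OA medians run from -0.45 for NRF2 targets to 0.44 for ATF4 and CHOP stress regulators, and the single high point of the urea cycle panel is Cps1.

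Markers of cholangiocytes, the lining cells of bile ducts, were checked because Cdh17 and Spp1 are among them. Spp1, osteopontin, fell 3.69-fold (607, 680.4 and 553 CPM to 143, 183 and 174 CPM). Of 7 tested markers 4 fell and 2 rose (1 rose without any 1 of control replicates 1 to 3 or BBR+OA replicates 1 and 2): Sox9 (0.40) and Epcam (0.54) were higher, Krt19 did not pass the test (0.31, edgeR adjusted p = 0.0912), and the defining markers Krt7, Cftr and Sctr were at or near 0 in all 6 libraries. The summed level, mostly Spp1, was 635.5 to 776.3 CPM in control and 219 to 258.8 CPM in BBR+OA. Of 11 endothelial markers 1 rose (Stab2, 1.27-fold) and none fell (2 and 3 without BBR+OA replicate 1), with summed levels of 100.5 to 111.8 and 103.8 to 109.2 CPM. Of 8 stellate cell and fibroblast markers 2 fell (Ecm1 and Acta2) and none rose (0 fell without control replicate 2 or BBR+OA replicate 3, and 1 without any of control replicates 1 and 3 and BBR+OA replicate 2), with summed levels of 56.76 to 63.06 and 49.27 to 54.1 CPM. The part of these cell types in the results was not tested.

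Finally, opposite calls in the 2 single comparisons were counted among genes with an Ensembl identifier, a symbol and a highest group mean of at least 5 CPM. There were 481 such genes, where 27.7% of all genes tested passed with BBR alone and 42.8% with OA alone. The 6 with the largest opposed changes show where the combination came to rest. Cxcl2, a neutrophil chemokine, was 2.96, 2.63 and 2.53 CPM in control, 10.5, 8.34 and 7.61 CPM in OA, 1.15, 0.708 and 0.538 CPM in BBR and 4.099, 4.17 and 4.77 CPM in BBR+OA (0.68 ± 0.17, edgeR adjusted p = 0.00353), between the single agents. Acmsd, which diverts tryptophan breakdown away from NAD, was raised by OA (1.43), lowered by BBR (-1.23) and stayed raised in the combination (14.8, 16.9 and 12.8 CPM to 32.3, 37.1 and 33.9 CPM, 1.22 ± 0.09, edgeR adjusted p = 9.12e-09). Kyat1, a kynurenine aminotransferase, behaved alike in these values (1.16 with OA, -0.94 with BBR and 0.97 ± 0.10 with both, edgeR adjusted p = 5.29e-07). The chemokine Ccl9 ended 1.32-fold over control (edgeR adjusted p = 0.0105), a call lost without control replicate 3 (adjusted p = 0.0599) or BBR+OA replicate 3 (adjusted p = 0.0511). Rnf186, a ubiquitin ligase, ended at 1.01, 2.33 and 2.56 CPM against 1.46, 1.72 and 1.47 CPM and did not pass the test (0.32 ± 0.30, edgeR adjusted p = 0.398). With Acaa1b, described above, 5 of the 6 thus differed from control under the combination.

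On the log2 scale, the combined change departed from the sum of the single changes in 1551 of 12742 genes (12.2%) in a model of all 12 libraries, and in 1027 without OA replicate 2 and 1028 without BBR replicate 2. The departure, the combined change minus the sum, was negative for Hilpda (-1.33 ± 0.09, edgeR adjusted p = 1.11e-07) and Pdk4 (-2.12 ± 0.13, edgeR adjusted p = 2.46e-08) and positive for Hamp (1.42 ± 0.13, edgeR adjusted p = 5.69e-06). For Acot1 (0.47 ± 0.39, edgeR adjusted p = 0.488), Ehhadh (-0.11 ± 0.12, edgeR adjusted p = 0.615), Cidec (-0.18 ± 0.19, edgeR adjusted p = 0.599) and Cdh17 (-0.47 ± 0.21, edgeR adjusted p = 0.164) no departure passed the test.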

How the data were processed

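RNA sequencing of primary mouse hepatocytes gave 12 libraries, 3 in each of 4 groups assigned by their titles. For each library the authors deposited 22471 features, each with its estimated count and its FPKM, a value scaled to gene length and depth. Per the submitters' processing notes the genome build was mm10; the aligner, the counting program and its strand setting are not given in the sources used here, so a gene and an antisense partner cannot be told apart. The deposited estimated counts were fractional in 2862 features and were rounded. The deposited FPKM values were only read, not tested. Counts were filtered with filterByExpr (minimum count 10), scaled by TMM and tested in edgeR 4.0.16 (quasi-likelihood, R 4.3.3) with Benjamini-Hochberg adjustment, on the 2 groups compared, or on 12 libraries for the interaction. The printed CPM use TMM factors over 12 libraries. Values with ± are log2 fold changes and SE. Alternatives were other scalings, filters, DESeq2 1.42.0, a replicate block and leaving out each library. The fits were tested on simulated data.

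Named genes were the 10 largest rises and falls (adjusted p under 0.05, at least 5 CPM in the higher group, groups not overlapping), the top 3 of each list by the same conditions, 20 fixed genes and the 6 most opposed genes. The members and lists were chosen with earlier results of these data known. Acaa2, Acadvl, Acta2, Alb, Arntl, Asns, Atf4, C1qa, Cd163, Cd5l, Cftr, Clec4f, Cpt1b, Dbp, Ddit3, Epcam, Fasn, Fgf21, Gclc, Gdf15, Hmgcs1, Hmox1, Jdp2, Krt19, Krt7, Nqo1, Nr0b2, Nr1h4, Nr1i2, Nupr1, Pck1, Plin4, Pycr1, Sctr, Slc22a12, Slc7a11, Sox9, Timd4, Ugdh, Vsig4 and the genes of the last part were outside the rule and chosen after their values were seen. Some genes that the rule named are not reported here. The lists held 848 genes, 840 with data and 784 with enough counts for the test; gene identifiers were matched to GENCODE M21 (99.71%). One count was worth 0.04212 to 0.05958 CPM in the 6 libraries, and floors cover counting error only. The SE come from the edgeR fits and rest on the spread between their libraries.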

Additional observations from a re-analysis of the deposited data

Results flagged for a closer look

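Among the 10 largest rises, the 10 largest falls and the 6 opposed genes, the effect of BBR differed between cells with and without OA for 10 genes. The test was the interaction test of edgeR on all 12 libraries with adjustment over all genes tested, which called 1551 of 12742 genes (12.2%). The genes looked at here were picked by their values in the same libraries, so the 10 calls cannot be compared with that share. Each value is the log2 effect of BBR with OA minus that without OA. It was positive for Cps1 (0.98 ± 0.15, edgeR adjusted p = 0.000352), Cdo1 (0.39 ± 0.09, edgeR adjusted p = 0.00716), Acmsd (1.04 ± 0.13, edgeR adjusted p = 6.00e-05) and Kyat1 (0.77 ± 0.18, edgeR adjusted p = 0.00933), 4 genes that BBR alone lowered and whose BBR+OA level did not pass the test against OA alone. It was positive as well for Serpina7 (0.99 ± 0.20, edgeR adjusted p = 0.00268), Abcc12 (0.63 ± 0.18, edgeR adjusted p = 0.0263) and Abca8a (1.22 ± 0.27, edgeR adjusted p = 0.00559), which each agent alone lowered. It was negative for Acaa1b (-1.13 ± 0.17, edgeR adjusted p = 0.000223), Lmcd1 (-0.63 ± 0.17, edgeR adjusted p = 0.017) and Cyp26a1 (-0.87 ± 0.28, edgeR adjusted p = 0.0473). The Cyp26a1 value stayed negative but missed the threshold when any of 10 single libraries was left out (adjusted p from 0.063 to 0.146), and the Abcc12 value when any of 5 was left out (adjusted p from 0.0529 to 0.102).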

How the results depend on the processing

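The count of genes passing for BBR+OA against control was 5461, and it lay between 4398 (DESeq2) and 6163 (replicate block) under the alternative scalings, filters and models, and between 4612 and 5007 when 1 library was left out (2245 to 2490 higher and 2357 to 2561 lower). Requiring at least a 2-fold change as well left 663 (231 higher and 432 lower), and 670 (234 and 436) with an unadjusted p. Upper quartile scaling moved the share of higher calls from 49.2 to 40.4% (2202 higher and 3242 lower). Whether equal replicate numbers pair the libraries is not given and was not settled here. Correlations of deviations were 0.1087, -0.02724 and 0.04036 for same-numbered libraries and -0.1233 to 0.09124 for the others. With the replicate block 6163 genes passed. The departure from the sum of the single changes was called for 1551 genes, 2265 with the replicate block, and 1027 to 1679 with 1 library left out, of which 1027 without OA replicate 2 and 1028 without BBR replicate 2 were the lowest; the cause was not tested. The number of lists with a positive median stayed between 22 and 28. For the 158 named genes, 2026 of 2054 alternative values stayed on the same side of the threshold, 25 (12 genes) lost the call and 3 (3 genes) gained one. None reversed where the main or the alternative fit passed. A change of sign between values that both missed the threshold was not counted as a reversal. Depth was lower on the whole in BBR+OA than in control, and the number of libraries, 3 in each group, limits the precision. The medians of 11 lists changed sign under at least 1 alternative, all of them lists with a median within 0.28 of 0.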

Other observations

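Some genes outside the naming rule, chosen after their values were seen, changed as much as those described. Clu, clusterin, a secreted chaperone and one of the most abundant messages of these cultures, stood at 15700, 16600 and 15800 CPM in control and at 7588, 8070 and 7723 CPM in BBR+OA (-1.04 ± 0.05, edgeR adjusted p = 9.41e-11), with OA alone at 8396, 9037 and 8906 CPM and BBR alone at 15660, 15660 and 16030 CPM. Cat, the peroxisomal catalase, fell 1.63-fold (edgeR adjusted p = 4.63e-09), and Osgin1, an oxidative stress response gene, fell 1.76-fold (538, 532 and 529 CPM to 317, 295 and 299.6 CPM).

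Other genes were almost silent in 1 group. Nts, which encodes the peptide neurotensin, was at 0, 0 and 0.0421 CPM in the control libraries and 3.85, 4.54 and 4.83 CPM in BBR+OA, with OA alone at 2.26, 3.08 and 3.83 CPM. Slc10a6, a carrier of sulfated steroids, was at 0, 0 and 0.0421 CPM in control and 3.49, 3.44 and 2.502 CPM in BBR+OA. Myo16, an unconventional myosin, was at 0.0502, 0.0477 and 0.169 CPM in control and 3.19, 4.703 and 4.71 CPM in BBR+OA. Eya2, a transcriptional coactivator, was at 0.903, 0.764 and 0.548 CPM in control and had no count in any BBR+OA library. Since 1 or both groups are at or near the floor of 3 counts for such genes, which is 0.1264 to 0.1787 CPM per library here, no fold change is given.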
